A study of Homo sapiens with 4 samples.

Results

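Translation initiation and elongation factors are the proteins that start and drive protein synthesis on cytoplasmic ribosomes. Their genes were chosen by name, as gene names that begin with EIF1 to EIF6 or with EEF1 or EEF2. The eIF2 alpha kinases, the eIF4E-binding proteins, EIF4ENIF1, the lysine methyltransferases of the elongation factors and pseudogenes were left out. Of 29655 distinct names in the count tables, 68 carried such a start. After 8 regulators and 2 pseudogenes had been removed, 58 members remained, of which 55 are protein-coding genes. The rule itself uses no measured value, but it was chosen with earlier results of these data known.

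The libraries came from UMSCC74B, an established cell line of head and neck squamous cell carcinoma (HNSCC) that the labels give as wild type. All cells received shRNA plasmids without antibiotic for 72 h. The 2 libraries of the control group came from cells given control shRNA and the 2 libraries of the other group, labelled PRMT5 KD, from cells given shRNA against the arginine methyltransferase PRMT5. The labels describe transfection of plasmids, whereas the study's methods describe lentiviral particles. Neither source used here says that the replicates were separate cultures, so each FDR measures the spread between these samples, which may be technical. The comparison asks how transcript levels differ after silencing of PRMT5.

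The deposited values are estimated counts per gene, and the libraries held 52263508 to 66070664 of them. Ribosomal RNA took 15.3% and 14.2% of the counts in control and 26.2% and 18.0% in the PRMT5 KD-labelled libraries. The PRMT5 transcript, which checks the labels, had 94.2 and 84.2 CPM (counts divided by library size, adjusted by edgeR's TMM factors) in control and 132 and 149 CPM in the PRMT5 KD-labelled libraries. It was thus higher where silencing was labelled (log2 fold change 0.66, standard error (SE) 0.12, FDR = 0.00545 by edgeR's quasi-likelihood test, adjusted over all genes tested), and without control replicate 2 its value was 0.58 (FDR = 0.0665). Every direction reported here is therefore by label, and counts do not measure the PRMT5 protein. The labels say that PRMT5 protein was also assessed by immunoblot, which was not analysed here. The squamous keratins went against the cell type given in the labels. KRT5, KRT14 and KRT6A had less than 1 CPM in every library, and the adhesion gene CDH1 reached at most 0.227 CPM. Of the 8 squamous markers examined, TP63 had 1.74 to 6.59 CPM and DSG3 18.8 to 43.0 CPM, both lower with the PRMT5 KD label. KRT17 had 0.126 and 0.120 CPM in control and 1.11 and 1.48 CPM with that label, and SFN 0.0758 and 0.0999 CPM against 0.588 and 1.80 CPM. Summed over the 8 markers, the level was 49.0 and 43.3 CPM in control and 22.5 and 32.3 CPM in the PRMT5 KD-labelled libraries. Among the markers of other cell types, HBB was not used here, and the endothelial gene PECAM1 had 7.40 and 9.77 CPM in control and 0.294 and 0.146 CPM with the PRMT5 KD label. PTPRC, CD3E and ALB were at or near 0 in all 4 libraries. The part of these markers and of ribosomal RNA in the results was not tested.

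Protein synthesis begins when the small ribosomal subunit, loaded with initiator tRNA by eIF2 and held by the eIF3 scaffold, is brought to the capped mRNA by the eIF4 factors. eIF1 and eIF1A hold the subunit in a scanning state until the start codon is found, eIF5 promotes GTP hydrolysis on eIF2, and eIF2B exchanges the GDP for GTP so that eIF2 can act again. eIF5B joins the large subunit, eIF1A helps it do so, and eIF6 keeps free large subunits from joining too early. In elongation, eEF1A delivers aminoacyl-tRNA, the eEF1B complex recharges eEF1A, eEF2 moves the ribosome along and eIF5A relieves stalls. Many of the abundant factors are encoded by TOP mRNAs, whose cap is followed by a C and a run of pyrimidines, and whose translation depends on mTOR signalling.

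The start of a TOP mRNA can be read in the genome sequence, so the windows around the annotated starts of selected members are shown. They are RefSeq sequences of GRCh38.p14 on the strand of the gene, 5′ to 3′, with 8 bases before the start and 22 from it. Capitals mark a C at the annotated first base together with the pyrimidines that follow, where there are at least 4. The first 6 genes have such a start. They include the most abundant elongation factors, EEF1A1 and EEF2, and the called members EIF4B, EIF3M and EIF3D.
EEF1A1, chr6:73521011-73521040, minus strand: tgaacgttCTTTTTCgcaacgggtttgccg
EEF2, chr19:3985442-3985471, minus strand: tcagcgttCTCTTCCgccgtcgtcgccgcc
EIF4A2, chr3:186783569-186783598, plus strand: gccgctgtCTTTTCagtcgggcgctgagtg
EIF4B, chr12:53006448-53006477, plus strand: atccgggtCTTTTgcgttctctttccctct
EIF3M, chr11:32583823-32583852, plus strand: ccagttccCTTTTCCggtcggcgtggtctt
EIF3D, chr22:36529145-36529174, minus strand: catgtttcCTCTTTTCCTggtttctcaaga

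The next 4 windows have no such run at the annotated start. They belong to EIF1AX, EIF5A2 and EIF2S1, which were among the members with the largest increases, and to EIF4G3. The window of EIF4G3 is at its upstream start, and this gene had the largest decrease of the members tested.
EIF1AX, chrX:20141817-20141846, minus strand: gtcgcggcgccatttgctgccgccgagcgt
EIF5A2, chr3:170908616-170908645, minus strand: cgtctcttggaactgccgcggccgccaccg
EIF2S1, chr14:67360320-67360349, plus strand: ggttccgcatgcgcggtggagtgagcgaag
EIF4G3, chr1:21176876-21176905, minus strand: ttccgagcagccgtcctgccggactgctgg

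Of the 58 members, 51 passed the filter on low values, which asked for 0.5 RPKM in both libraries of a group, and were tested among 11872 protein-coding genes. Calls required an FDR below 0.05 and a log2 fold change of 0.5 or more in size. By this rule 18 members were higher in the PRMT5 KD-labelled libraries, 3 were lower and 30 were not called. Among all genes tested, 21.2% were called higher and 24.3% lower, against 35.3% and 5.88% of the members tested. The share called in either direction was 45.5% over all genes and 41.2% over the members. The median log2 fold change of the members was 0.29, beside -0.01 over all genes tested, and 39 members were above 0 and 12 below. The libraries of the groups did not overlap for 46 of the 51 members (90.2%), beside 80.5% of all genes. In bulk RNA, fewer cells with a transcript and less of it per cell cannot be told apart.

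Calls over all genes tested became fewer when either control library was left out. The number of members called also fell, most of all without control replicate 2. Calls over all genes were also fewest then, and EEF1D, EEF1E1, EEF2K, EIF1AD, EIF2B1, EIF3B, EIF3D, EIF4A1 and EIF4B were no longer called. Without control replicate 1, EEF1E1, EIF1AD, EIF2B1, EIF4A1 and EIF4E2 were no longer called. None of the 21 called members changed direction under any of the 16 alternative settings in which it had a value of its own, and 11 kept their call under all of those. In the setting with near-identical copies summed, EIF5A and EIF5AL1 had only a joint value. These 11 were EIF1AX, EIF2B3, EIF2S1, EIF3M, EIF4A3, EIF4E, EIF4G3, EIF5A, EIF5A2, EIF5AL1 and EIF6.

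**Figure D1:**
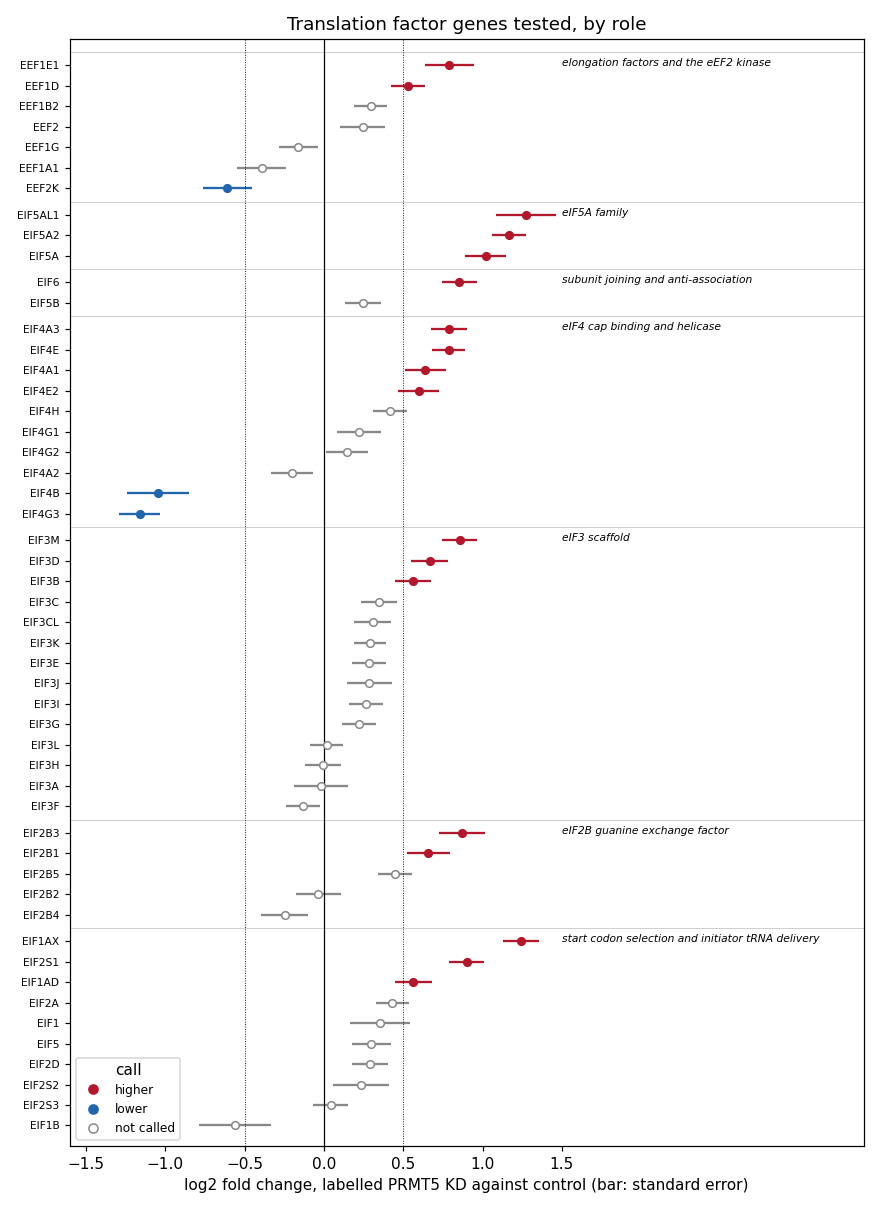
The log2 fold change (PRMT5 KD-labelled libraries against control) of the 51 tested members, grouped by role, with bars for the SE and dotted lines at -0.5 and 0.5. Filled points mark the 18 members called higher and the 3 called lower, and open points the 30 not called; all 3 members of the eIF5A family lie above 1.

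All 3 members of the eIF5A family were called higher, and their median log2 fold change of 1.17 was the highest of the role groups. eIF5A binds the ribosome near the peptidyl transferase centre and carries hypusine, an amino acid made by modification of a lysine. EIF5A (chromosome 17, 7306999 to 7312463) had 317 and 295 CPM in control and 602 and 640 CPM in the PRMT5 KD-labelled libraries. The means were 306 ± 15.8 and 621 ± 26.7 CPM (SD, n = 2 each), and the log2 fold change was 1.02 (SE 0.13, edgeR FDR = 0.00133). Both PRMT5 KD-labelled libraries thus lay far above both control libraries. EIF5A2 (chromosome 3, 170888418 to 170908644), a paralog first known from a region amplified in ovarian cancer, had 70.5 and 73.8 CPM in control and 159 and 165 CPM with the PRMT5 KD label. Its log2 fold change was 1.17 (SE 0.11, FDR = 0.000505). Both paralogs were therefore called higher, and EIF5A2 made up 4.83% and 5.41% of their sum per kilobase of transcript in control and 5.70% and 5.56% with the PRMT5 KD label. EIF5AL1, a near-identical copy of EIF5A, had only 3.02 to 7.59 CPM, and its log2 fold change of 1.28 is uncertain because reads of the copies can be divided between them. With EIF5A and EIF5AL1 summed, an alternative chosen after the data had been seen, the log2 fold change was 1.02 (FDR = 0.00131).

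Of the factors that select the start codon and deliver the initiator tRNA, 10 were tested. Of these, 3 were called higher and none lower, with a median log2 fold change of 0.33. EIF1AX (chromosome X, 20124525 to 20141838) encodes eIF1A, which binds the decoding site of the small subunit. It had 38.7 and 40.3 CPM in control and 97.4 and 89.4 CPM in the PRMT5 KD-labelled libraries. This was a log2 fold change of 1.24 (SE 0.11, FDR = 0.000488), the largest of any member apart from EIF5AL1. EIF1AX has a near-identical copy on another chromosome, and how reads between them were divided is not given in the sources used here. EIF2S1 (chromosome 14, 67360328 to 67386516) encodes eIF2 alpha, the subunit whose phosphorylation slows initiation in the integrated stress response. It had 99.1 and 91.8 CPM in control and 182 and 174 CPM with the PRMT5 KD label, with a log2 fold change of 0.90 (SE 0.11, FDR = 0.00119). The other eIF2 subunits were not called. EIF2S2, the beta subunit, had a log2 fold change of 0.23 with overlapping groups, and EIF2S3, the gamma subunit that binds GTP and the initiator tRNA, had 261 and 264 CPM in control and 272 and 269 CPM with the PRMT5 KD label (log2 fold change 0.04). EIF1AD, a gene related to EIF1AX by its eIF1A-like domain, was called higher at 0.56.

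eIF1 is encoded by the paralogs EIF1 and EIF1B, which had values of opposite sign without a call. EIF1 had 325 and 274 CPM in control and 445 and 321 CPM with the PRMT5 KD label, so that the groups overlapped (log2 fold change 0.36, FDR = 0.156). EIF1B had 45.9 and 42.4 CPM in control and 36.8 and 23.1 CPM with the PRMT5 KD label (log2 fold change -0.56, FDR = 0.0833). In both genes the PRMT5 KD-labelled libraries lay far apart. With 1 library left out, EIF1B ranged from -0.91, without PRMT5 KD replicate 1, to -0.26. EIF1 ranged from 0.13 to 0.57, the latter without PRMT5 KD replicate 2. EIF2A, which can deliver initiator tRNA in place of eIF2, passed the FDR alone (0.43, FDR = 0.0149). EIF5 was at 0.30 and EIF2D, another factor that can place tRNA on the small subunit, at 0.29, both without a call.

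eIF2B has 5 subunits, and all 5 were tested, with 2 called higher and none lower. EIF2B3, the gamma subunit of the catalytic part, had 20.6 and 17.3 CPM in control and 32.6 and 36.6 CPM in the PRMT5 KD-labelled libraries (log2 fold change 0.87, SE 0.14, FDR = 0.00344). EIF2B5, the epsilon subunit that carries the exchange activity, had 60.8 and 61.2 CPM in control and 80.9 and 85.5 CPM with the PRMT5 KD label. At a log2 fold change of 0.45 (FDR = 0.0123) it passed the FDR alone, and 7 alternatives called it higher, at 0.50 to 0.63. EIF2B5 was also the subunit with the highest level per kilobase, 23.8 RPKM in control, where RPKM is the TMM-scaled CPM per kilobase of the canonical transcript. The alpha subunit EIF2B1 was called higher at 0.66. EIF2B2 and EIF2B4, the beta and delta subunits, had log2 fold changes of -0.03 and -0.25 without a call. The subunits of this complex therefore did not share one value, although differences between subunits were not tested.

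The eIF3 scaffold had the most members, 14 tested, of which 3 were called higher, none lower and 11 not called. The median log2 fold change was 0.29, and the values not called lay between -0.13 and 0.35. EIF3M (chromosome 11, 32583798 to 32606264) had 97.0 and 94.9 CPM in control and 167 and 180 CPM in the PRMT5 KD-labelled libraries (log2 fold change 0.85, SE 0.11, FDR = 0.00136). EIF3D, which can itself bind the cap of certain mRNAs, was at 0.67 (FDR = 0.0042), and EIF3B, the subunit that anchors EIF3G and EIF3I, was at 0.56 (FDR = 0.00748). These subunits belong to different modules of the complex, since EIF3M sits in the octamer core and EIF3B outside it. EIF3A, the largest subunit of the core, had 494 and 452 CPM in control and 530 and 403 CPM with the PRMT5 KD label, so that the groups overlapped (log2 fold change -0.02). EIF3I, a propeller-shaped subunit with the highest level per kilobase among these genes, had 123 and 125 CPM in control and 155 and 143 CPM with the PRMT5 KD label (log2 fold change 0.26, FDR = 0.0804). EIF3E, EIF3G, EIF3J and EIF3K lay between 0.22 and 0.29. EIF3F, EIF3H and EIF3L lay between -0.13 and 0.02, and none of these 7 was called. After the length and GC correction EIF3E (0.81) and EIF3I (0.52) were called higher. That correction used the union of all annotated exons, 37761 bases for EIF3E and 9526 for EIF3I. Their canonical transcripts have 2022 and 1421 bases, and the part of this difference in the corrected values was not tested. EIF3C and EIF3CL are near-identical copies with log2 fold changes of 0.35 and 0.31, and their sum, again chosen after the data had been seen, was at 0.32 without a call (FDR = 0.0614).

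The eIF4 factors held changes in both directions, with 4 of 10 tested members called higher and 2 lower. The lower ones were 2 of the 3 members called lower in all. EIF4G3 (chromosome 1, 20806292 to 21177285) encodes a paralog of the cap complex scaffold eIF4G1. It had 286 and 301 CPM in control and 141 and 121 CPM in the PRMT5 KD-labelled libraries. The means were 294 ± 10.6 and 131 ± 14.1 CPM (SD, n = 2 each), and the log2 fold change was -1.16 (SE 0.13, FDR = 0.000829). EIF4B (chromosome 12, 53006282 to 53042215) encodes an RNA-binding protein that stimulates the eIF4A helicase. It had 512 and 567 CPM in control and 308 and 215 CPM with the PRMT5 KD label, with a log2 fold change of -1.05 (SE 0.19, FDR = 0.00543). The PRMT5 KD-labelled libraries differed more from each other in EIF4B than in EIF4G3. EIF4B ranged from -1.30 to -0.81 with 1 library left out, and it lost its call without control replicate 2 (-0.97, FDR = 0.0576). EIF4H, which shares the helicase-stimulating role of EIF4B, had the opposite sign at 0.42 and passed the FDR alone (FDR = 0.0182).

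EIF4E encodes the cap-binding protein itself and had 52.3 and 50.5 CPM in control and 88.0 and 89.1 CPM in the PRMT5 KD-labelled libraries. Its log2 fold change was 0.79 (SE 0.10, FDR = 0.00151). The paralog EIF4E2, which binds the cap without eIF4G and is known as a repressor, had 34.2 and 38.6 CPM in control and 51.8 and 58.3 CPM with the PRMT5 KD label (log2 fold change 0.60, FDR = 0.00862). Both cap-binding genes were therefore called higher. Of the sum of EIF4E, EIF4E2 and EIF4E3 per kilobase, EIF4E2 made up 62.0% and 65.6% in control. With the PRMT5 KD label it made up 59.6% and 62.1%, so that the groups overlapped. EIF4E3 had 1.29 and 1.72 CPM in control and 0.672 and 0.941 CPM with the PRMT5 KD label and did not pass the filter. EIF4E1B was not detected at this depth, with 0 counts in all libraries.

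The eIF4A helicases unwind the 5′ leader of mRNAs, apart from EIF4A3, which is a core part of the exon junction complex and not an initiation factor in the strict sense. EIF4A1 had 538 and 540 CPM in control and 840 and 837 CPM in the PRMT5 KD-labelled libraries (log2 fold change 0.64, SE 0.13, FDR = 0.00717). EIF4A2 had 301 and 346 CPM in control and 295 and 268 CPM with the PRMT5 KD label (log2 fold change -0.20, FDR = 0.241). The shares of these paralogs did not overlap between the groups. EIF4A2 made up 34.3% and 37.4% of their sum per kilobase in control and 24.6% and 23.0% in the PRMT5 KD-labelled libraries. EIF4A1 shares its locus with a readthrough transcript of SENP3, which has its own entry in the tables, and the division of reads between them is uncertain. EIF4A3 had 79.7 and 71.3 CPM in control and 128 and 133 CPM with the PRMT5 KD label and was called higher at 0.79 (FDR = 0.00201).

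Among the eIF4G scaffolds, EIF4G3 was called. EIF4G1 had 1232 and 1185 CPM in control and 1449 and 1365 CPM in the PRMT5 KD-labelled libraries (log2 fold change 0.22, FDR = 0.219). EIF4G2, which lacks the eIF4E-binding part, had 619 and 619 CPM in control and 705 and 665 CPM with the PRMT5 KD label (log2 fold change 0.15). Neither was called, although in both genes the groups did not overlap, and after the length and GC correction EIF4G1 was called higher (0.54, FDR = 0.0169). EIF4G3 made up 16.4% and 17.7% of the sum of EIF4G1 and EIF4G3 per kilobase in control and 7.61% and 6.99% with the PRMT5 KD label. For EIF1 and EIF1B, the share of EIF1B was 25.1% and 26.8% in control and 16.4% and 14.5% with the PRMT5 KD label. With 2 libraries against 2, a permutation test on such a share cannot reach a p of 0.05, so no test is given for them.

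**Figure D2:**
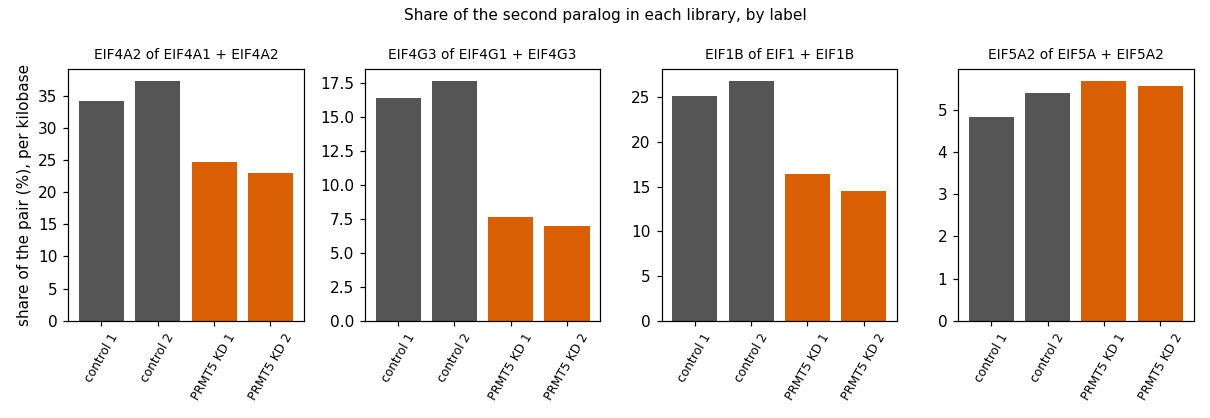
The share of the second paralog in the sum of each pair, in percent, computed per kilobase of canonical transcript in each library, with control libraries in grey and PRMT5 KD-labelled libraries in orange. The shares of EIF4A2, EIF4G3 and EIF1B are lower in both PRMT5 KD-labelled libraries than in both control libraries. That of EIF5A2 is higher in both, though it lies between 4.83% and 5.70% in all 4.

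Of the factors of subunit joining and anti-association, EIF6 (chromosome 20, 35278907 to 35284985) was called higher. It had 94.1 and 97.7 CPM in control and 181 and 165 CPM in the PRMT5 KD-labelled libraries, with a log2 fold change of 0.85 (SE 0.11, FDR = 0.00148). EIF5B, the GTPase that joins the subunits, was at 0.24 without a call (FDR = 0.11). Both PRMT5 KD-labelled libraries were above both control libraries in either gene.

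Of the elongation factors and the eEF2 kinase, 7 were tested, with 2 called higher and 1 lower. EEF1A1 (chromosome 6, 73489308 to 73525587), which encodes the main carrier of aminoacyl-tRNA, was by far the most abundant member. It had 10220 and 9532 CPM in control and 7571 and 7493 CPM in the PRMT5 KD-labelled libraries. The groups did not overlap, but the log2 fold change of -0.39 (SE 0.16) did not pass the test (FDR = 0.0725). DESeq2 gave -0.38 (FDR = 0.00707), and the length and GC correction in edgeR gave -0.16 (FDR = 0.414). EEF1A1 was not called in either of these. Its paralog EEF1A2, known from muscle and neurons, had 0.631 and 0.779 CPM in control and 0.168 and 0.272 CPM with the PRMT5 KD label and did not pass the filter. In a fit over all gene names EEF1A2 was at -1.57 (FDR = 0.0241), from at most 39 counts in a library. EEF2, the translocase, had 2026 and 1980 CPM in control and 2441 and 2302 CPM with the PRMT5 KD label (log2 fold change 0.24, FDR = 0.191). EEF2K, the kinase that phosphorylates and inactivates eEF2, had 44.9 and 58.4 CPM in control and 32.5 and 35.3 CPM with the PRMT5 KD label. It was called lower at -0.61 (SE 0.15, FDR = 0.0169), and without control replicate 2 the value was -0.40 (FDR = 0.136). EEF1D and EEF1B2 encode the exchange subunits that recharge eEF1A. EEF1D was called higher at 0.53 (FDR = 0.00705), while EEF1B2 was at 0.29 (FDR = 0.0531) and the structural subunit EEF1G at -0.16, both without a call. EEF1E1, a scaffold protein of the aminoacyl-tRNA synthetase complex, had 7.04 and 7.09 CPM in control and 12.9 and 11.6 CPM with the PRMT5 KD label, and was called higher at 0.79.

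**Figure D3:**
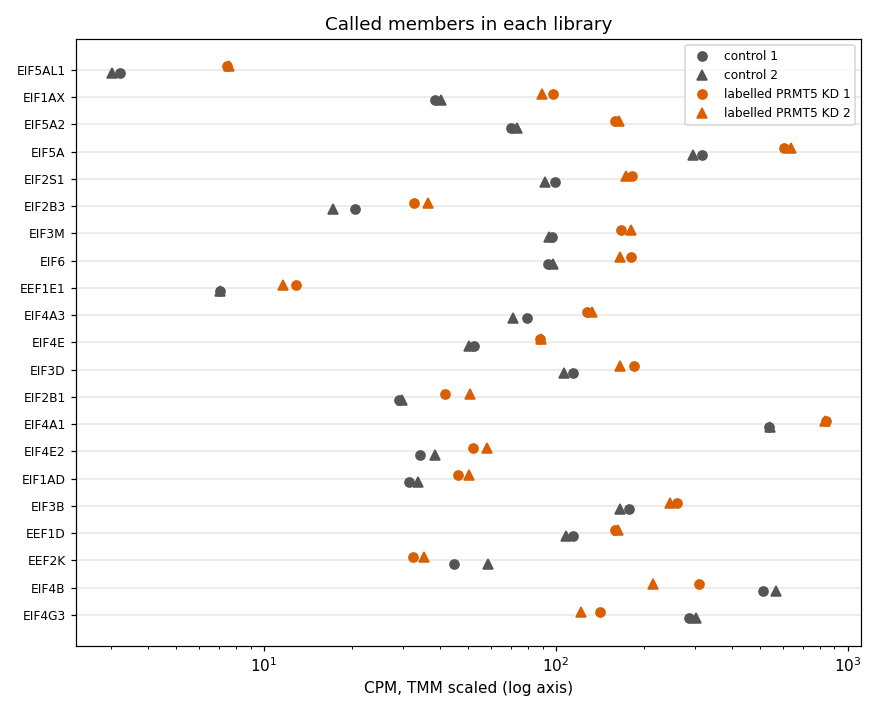
The TMM-scaled CPM (log axis) of the 21 called members in each of the 4 libraries, with control libraries in grey and PRMT5 KD-labelled libraries in orange, circles for replicate 1 and triangles for replicate 2. In every row the groups do not overlap, and EEF2K, EIF4B and EIF4G3 are the 3 rows in which control lies to the right.

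Members differed widely in level, here given as the mean RPKM in control. EEF1A1 stood at 2812 RPKM, EEF2 at 634, EEF1G at 384, EIF4A1 at 306, EIF5A at 242 and EIF4G1 at 224. The lowest tested members were EIF5AL1 at 0.796 and EIF2B2 at 5.53. With the PRMT5 KD label, EIF5A rose to 491 RPKM, which placed it above EIF4A1 at 477 and EEF1G at 344. All members together took 1.98% and 1.88% of the protein-coding counts in control and 2.13% and 2.14% in the PRMT5 KD-labelled libraries. EEF1A1 alone took 0.964% and 0.888% in control and 0.784% and 0.815% with the PRMT5 KD label. Across the 51 members, Spearman's rho of the log2 fold change was -0.25 with exon length, -0.05 with GC content and -0.24 with the average log2 CPM, and across all genes tested -0.21, -0.02 and 0.0028. These points come from the same 4 libraries, so the values are descriptions. Among the 5520 genes tested with an exon length in the middle range of the members, 21.5% were called higher and 23.2% lower, with a median of 0.01. Among the 4067 genes whose average log2 CPM reached the lower quartile of the members, 18.5% were called higher and 26.1% lower, with a median of -0.05. With exon length and GC content corrected for, 21 members were called higher and 3 lower, and the median was 0.44. Over all genes the median then moved up as well, to 0.06, and 5338 of 11872 genes were called.

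The annotated starts shown above were then set beside the values. Of the tested members, 43 had a promoter in the RefSeq table, and 12 of them (27.9%) had a C at an annotated start followed by at least 4 pyrimidines, beside 702 of 9168 genes tested (7.66%). Of these 12, 2 were called higher (EIF3D and EIF3M), 1 lower (EIF4B) and 9 were not called, with a median log2 fold change of 0.27. Of the 31 members without such a start, 15 were called higher and 2 lower, with a median of 0.45. Over all genes with a pyrimidine start, 17.8% were called higher and 22.8% lower, and over all genes without it 21.1% and 23.9%. The medians over these genes were -0.0074 with the start and -0.0043 without it. The difference between members with and without this start was not tested. A list of 9 members known from general knowledge to have TOP mRNAs had 1 called higher (EEF1D), 1 lower (EIF4B) and a median of -0.01. Of these 9, EEF1G does not show the run at its annotated start, and EEF1D, EIF3E and EIF3H had no promoter sequence to examine. An annotated start need not be the one used in these cells.

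**Figure D4:**
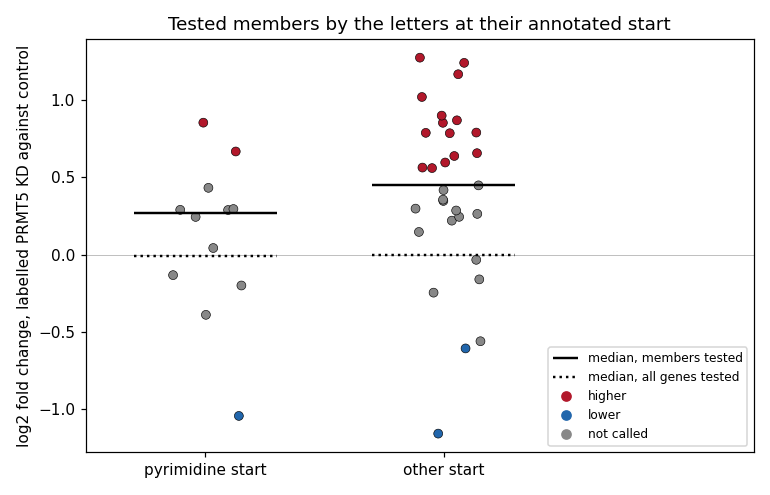
The log2 fold change (PRMT5 KD-labelled libraries against control) of the 43 tested members with a promoter sequence, divided by whether an annotated start is a C followed by at least 4 pyrimidines; solid lines mark the members' medians and dotted lines those of all genes tested. Of the 12 members with such a start, 2 are called higher and the median is 0.27. Of the 31 others, 15 are called higher and the median is 0.45.

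The letters CACGTG, the core of the E-box to which MYC and related factors can bind, were searched in the window from 250 bases before to 50 bases after each annotated start. The motif reads the same on both strands. It was present in 11 of the 43 members (25.6%), beside 12.7% of the 9168 genes tested. Of these 11, 4 were called higher, 2 lower and 5 were not called, while of the 32 members without the motif 13 were called higher and 1 lower. Over all genes with the motif, 22.5% were called higher and 22.7% lower, and over all genes without it 20.6% and 24.0%. The matches upstream of the start in the 6 called members are shown with 10 bases on each side and the motif in capitals. EIF3F, EIF3K and EIF4B held both this motif and a pyrimidine start.
EIF2B3, chr1:44986759-44986784, minus strand: cagagggacaCACGTGtcgaatgctc
EIF4A3, chr17:80147234-80147259, minus strand: agttccctttCACGTGacgaagagtg
EIF4E, first match, chr4:98929343-98929368, minus strand: acccatcggcCACGTGaccagtcctt
EIF4E, second match, chr4:98929190-98929215, minus strand: acatatccgtCACGTGgccagaagct
EIF5A2, first match, chr3:170908809-170908834, minus strand: taatccgcagCACGTGgggttgccag
EIF5A2, second match, chr3:170908784-170908809, minus strand: gggcgctcttCACGTGactgggcgga
EIF4B, chr12:53006424-53006449, plus strand: ccgctataatCACGTGattgcctcat
EEF2K, chr16:22206209-22206234, plus strand: tgggggcggcCACGTGagcgccacgc

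EIF2B3, EIF4A3, EIF4E and EIF5A2 were higher and EIF4B and EEF2K lower, so members with the motif were found on both sides. A match of these letters is a description of the sequence and says nothing of binding in these cells.

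A further 7 members were not tested. EEF1A2, EIF4E3, EIF4E1B and EIF1AY did not pass the filter. EIF1B-AS1, EIF3J-AS1 and the readthrough transcript EEF1E1-BLOC1S5 are not protein-coding in RefSeq. EIF3J-AS1, a noncoding transcript that starts next to EIF3J on the opposite strand, had 7.15 and 5.47 CPM in control and 2.98 and 3.20 CPM in the PRMT5 KD-labelled libraries. In a fit over all gene names its log2 fold change was -0.92 (FDR = 0.0174), whereas EIF3J itself was at 0.29 without a call. The kit keeps the strand, but whether the counting used it is not given in the sources used here.

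Other genes of translation, among them genes that act on these factors, were taken from a list of 56, of which 53 were tested. Of these, 12 were called higher and 2 lower, with a median log2 fold change of 0.22, beside the same 21.2% and 24.3% over all genes. Without control replicate 2, ABCF1, BZW1, EIF2AK4, FAM86A, METTL10 and RPS6KB2 lost their call. Without control replicate 1, BZW1, FAM86A, METTL10 and RPS6KB2 lost it. DOHH, the hydroxylase that completes hypusine on eIF5A, had 10.3 and 8.39 CPM in control and 29.8 and 25.3 CPM in the PRMT5 KD-labelled libraries. Its log2 fold change of 1.56 (SE 0.17, FDR = 0.000773) stood beside 1.02 for EIF5A itself. DHPS, which carries out the first step of hypusine synthesis, passed the FDR alone (0.32, FDR = 0.0447). DPH2, part of the enzyme that starts diphthamide on eEF2, was called higher at 1.03, and FAM86A (now EEF2KMT), a methyltransferase of eEF2 whose reads may be shared with close paralogs, at 0.90. Of the recycling and rescue factors and the eIF5 mimics, ABCE1, which splits the ribosome after termination, was at 0.81, PELO, which acts with it on stalled ribosomes, at 0.91, and BZW2, a competitor of eIF5, at 0.92, all called higher. The mitochondrial elongation factor TSFM was at 0.81 and METTL10 (now EEF1AKMT2) at 0.74. Among the 6 eIF2 alpha kinases and phosphatase subunits, none was called higher. EIF2AK3 (PERK), the kinase of endoplasmic reticulum stress, had 66.2 and 76.4 CPM in control and 32.3 and 35.3 CPM with the PRMT5 KD label (log2 fold change -1.08, SE 0.13, FDR = 0.00102). EIF2AK4 (GCN2), the kinase of amino acid shortage, was called lower at -0.51 (FDR = 0.0115), a call that 8 of the 16 alternatives ended. It was at -0.40 without control replicate 2, -0.47 without PRMT5 KD replicate 1 and -0.19 after the length and GC correction. The other kinases of eIF2 alpha were not called, with EIF2AK2 at 0.48 (FDR = 0.0531, groups not overlapping) and EIF2AK1 at -0.05. In the edgeR fit over all gene names, however, EIF2AK2 was called higher (0.59, FDR = 0.0265). Of these 6 genes 3 were above 0 and 3 below, with a median of 0.02.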

How the data were processed

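RNA-seq was analysed for 2 control and 2 PRMT5 KD libraries of UMSCC74B cells. The authors deposited 1 table for each library, with estimated counts per gene that were not normalized. The submitters' processing notes name FastQC, Trim Galore, STAR, Salmon, DESeq2 and GRCh38, whereas the study's methods name FeatureCounts. Each table held 29744 rows, of which 28 with names turned into dates were left out (0.150% to 0.161% of the counts). Protein-coding counts made up 71.5% to 81.3% of a library. Names were matched to GENCODE release 44 and RefSeq. Counts were rounded. Protein-coding genes that reached an RPKM of 0.5 in both libraries of either group entered the quasi-likelihood test of edgeR 4.0.16 (robust dispersion, TMM factors, R 4.3.3) without a replicate block. FDR is the Benjamini-Hochberg adjustment over all genes tested, and CPM are TMM-scaled. The filter and the length and GC correction used union exon lengths, while levels per kilobase used the canonical transcript. Standard errors were computed from the F statistic and the fold change. The procedure was tested on simulated data. One marker of other cell types is not reported here.

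Alternatives were DESeq2 1.42.0, its size factors in edgeR, total counts alone, filterByExpr, no filter, all gene names, non-robust dispersion, a replicate block, a spline correction (4 degrees of freedom) on exon length and GC content, and leaving out each library. A crossed block and sums of near-identical copies were added after the data had been seen. The members, the lists, written from general knowledge, and the comparisons were chosen with earlier results of these data known. Values are given per library for the 10 largest called changes in each direction, the most abundant member of each role group and the paralog sets. Other members are given by fold change or range, and of the 56 other translation genes up to 8 called in each direction are named. Of the 58 members, 48 had a RefSeq promoter.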

Additional observations from a re-analysis of the deposited data

How the results depend on the processing

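The number of members called higher lay between 11 and 19, and the number called lower between 1 and 4, in the comparisons that each left out 1 library. The lone library of a group was assumed to vary like the other group. The genes acting on the factors that were called ranged from 8 to 17 and the median log2 fold change of the members from 0.30 to 0.36. PRMT5 ranged from 0.57 to 0.78 and lost its call without control replicate 2 (0.58, FDR = 0.0665). The median of the members was 0.47 with total counts alone, 0.35 with filterByExpr, 0.34 without a filter, 0.40 over all gene names, 0.44 after the length and GC correction and 0.43 with that correction and the replicate block. Total counts alone moved the median of all genes to 0.17 and called 23 of the other translation genes. The length and GC correction moved the median of all genes to 0.06, with and without the replicate block. The cause of these shifts was not tested. With the replicate block, 18 members were called higher, 3 lower and 14 of the other translation genes in either direction. The median was 0.29, PRMT5 was at 0.66, and no call on a member changed. The labels do not say that the replicate numbers pair the libraries. The deviations of same-numbered libraries correlated at -0.10, and the crossed block, added after the data had been seen, gave 18 members higher and 3 lower.

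Members near 0 changed sign. EIF3H went to 0.0025 with DESeq2 and 0.0026 with its size factors in edgeR. With total counts alone EEF1G was at 0.017, EIF2B2 at 0.14, EIF3A at 0.15, EIF3F at 0.044 and EIF3H at 0.17. EIF2B2, EIF3A and EIF3H were at 0.030, 0.044 and 0.060 with filterByExpr, 0.020, 0.035 and 0.048 without a filter, and 0.074, 0.089 and 0.10 over all gene names. After the length and GC correction EIF2S3 was at -0.050, EIF3A at 0.065, EIF3F at 0.22, EIF3H at 0.020 and EIF3L at -0.0047, and with the block as well they were at -0.050, 0.052, 0.22, 0.019 and -0.0047. With 1 library left out, EIF2B2 ranged from -0.13 to 0.089, EIF3A from -0.20 to 0.17 and EIF3H from -0.050 to 0.072. None of these values was called. EEF2K lost its call under 5 alternatives, among them total counts alone and the length and GC correction, and EIF1AD under 4. Members not called in the report gained a call. EIF2B5 did so under 7 alternatives (0.50 to 0.63), EIF1B under 4 (-0.91 to -0.56, among them DESeq2 and the correction), and EIF3E (0.81), EIF3I (0.52) and EIF4G1 (0.54) after the correction, with and without the block. EIF2A (0.54 and 0.61) and EIF4H (0.53 and 0.60) did so over all gene names and with total counts alone, EIF1 (0.53) and EIF3C (0.52) with total counts alone, and EIF1 also without PRMT5 KD replicate 2 (0.57). With 2 libraries per group, a difference below the spread of the libraries was not detectable at this depth.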

Other observations

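The regulators of cap-dependent initiation were counted among the 56 genes but not described by name. They are given here as values, and the genes named were chosen after their values had been seen. Of 12 genes that bind eIF4E, regulate the cap complex or signal to it, 1 was called higher and none lower. This stood beside 21.2% and 24.3% over all genes tested, and the median of the 12 was 0.18 (log2 fold change). The one called was RPS6KB2, which encodes the S6 kinase beta 2, at 0.57 (edgeR FDR = 0.00852). MTOR had 211 and 200 CPM in control and 211 and 201 CPM in the PRMT5 KD-labelled libraries, a log2 fold change of 0.00. LARP1, which binds TOP mRNAs, had 480 and 508 CPM in control and 629 and 675 CPM with the PRMT5 KD label. At 0.40 (FDR = 0.04) it passed the FDR alone. In the fit over all gene names, EIF4EBP1 (0.57), MKNK2 (0.57), RPS6KB1 (0.54) and LARP1 (0.51) were called higher too, and again none of the 12 lower. The termination factors ETF1 and GSPT1 were at -0.08 and -0.14 without a call, and GSPT2 was at or near 0 in all libraries. Of the 5 poly(A)-binding proteins and their modulators, PAIP2, an inhibitor of PABPC1, was called higher at 0.69, while PABPC1 itself was at -0.14 (FDR = 0.391).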
